A study of Homo sapiens with 36 samples.

Results

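The 10 genes described here act in cholesterol sensing and lipid export in macrophages: the oxysterol receptors NR1H3 and NR1H2, the fatty acid receptor PPARG, and 7 of their known targets, ABCA1, ABCG1, MYLIP, APOE, APOC1, LPL and LPCAT3. They were picked by name, as the rows of a deposited expression table whose Entrez Gene identifier maps to these symbols. All 10 were among its 21599 genes, and all 10 were among the 21232 that passed a filter on low values (log2 value of 3.32 or more in at least 3 libraries). The rule itself uses no measured value, but the members were chosen with earlier results of these data known.

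RNA-seq was done on THP-1 cells, a human monocytic leukaemia line, either wild type (WT) or IRG1 knockout (KO). Both genotypes were first turned into macrophage-like cells with the phorbol ester PMA (100 nM for 72 h), so every group, the vehicle groups included, carries that treatment. They then received vehicle, or lipopolysaccharide (LPS) and interferon-gamma (IFN-γ) together at 200 ng/mL each, for 6, 12 or 24 h. This gives 12 groups: WT vehicle, WT stimulated, KO vehicle and KO stimulated, at each of 3 times, with 3 libraries in each. IRG1, now called ACOD1, encodes the mitochondrial enzyme that makes itaconate. The labels do not say how the knockout was made or whether the KO line is a single clone, so the genotype cannot be told apart from other differences between the lines. Whether the 3 libraries of a group stand for 3 cultures is not stated either, and p-values then cover only the spread among these samples, which may be technical.

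Liver X receptors (LXR) are nuclear receptors that bind oxysterols and act as partners of the retinoid X receptor (RXR). When cholesterol builds up, LXR switches on genes that carry it out of the cell (ABCA1, ABCG1, APOE), that limit its uptake (MYLIP) and that remodel membrane phospholipids (LPCAT3). PPARγ, encoded by PPARG, senses fatty acids and oxidised lipids, drives lipid uptake and can raise NR1H3. In macrophages, inflammatory signals are known to interfere with this programme.

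A regulatory sequence shows what a match to an LXR response element looks like in this set. LXR with RXR binds the DR4 element, 2 direct copies of AGGTCA with 4 bases of any kind between them. RefSeq promoter windows on GRCh38.p14, each spanning the start of a gene, were matched for 8 of the 10 genes (18 windows) and searched on both strands with up to 2 mismatches. A match was found in 1 of these 18 windows, that of ABCA1, and in 822 of all 35116 windows (2.34%). The 120 bases before that ABCA1 start, on the minus strand at chr9:104928156-104928275, read as follows, with the match in capitals.

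ABCA1: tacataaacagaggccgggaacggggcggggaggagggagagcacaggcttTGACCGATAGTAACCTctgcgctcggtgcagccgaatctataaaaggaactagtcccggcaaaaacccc

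The match lies at -69 to -54 from the start (chr9:104928209-104928224). Read on the opposite strand it is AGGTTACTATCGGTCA, which differs from the motif by C5T and A11C, the motif's base first and positions counted from the 5′ end of the motif. The interferon-gamma element TTCNNNGAA was in none of the 18 windows and in 2689 of 35116 (7.66%). A match is a description of letters and says nothing on binding in these cells.

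The authors deposited log2 expression values, and levels are compared between groups and never between genes, since length and scaling are not given. A change is a difference of group means on that log2 scale, with its standard error (SE) after ±. A gene is called where the limma p, adjusted over all 21232 genes by Benjamini-Hochberg, is below 0.05. Values given in sets of 3 for 1 group run in the order of replicates 1, 2 and 3.

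The libraries carried the marks of their labels, with an exception in replicate 2. ACOD1 was at 0.86 or less in all 18 vehicle libraries and at 9.20 to 12.76 in stimulated WT cells. In stimulated KO cells it was at 7.98 to 10.22, lowered and not absent (KO minus WT, mean of 3 times, -2.49 ± 0.27, adjusted p = 1.24e-07). CXCL10, an interferon target, rose in all 6 stimulated groups by 11.16 to 14.90. All 10 macrophage markers were measured, and their summed level (log2) was 14.23 to 15.43 in WT vehicle, 13.70 to 14.70 in WT stimulated, 13.27 to 13.92 in KO vehicle and 12.98 to 13.93 in KO stimulated cells. Of 13 markers of other cell types 6 were in the table, among them ALB, APOA1 and KRT18 at 0.14 to 6.20, COL1A1 at 2.87 to 7.86 and PECAM1, which myeloid cells also make, at 5.96 to 9.19. The summed level (log2) of the 6 was 8.13 to 9.38 in WT vehicle, 7.87 to 9.40 in WT stimulated, 7.58 to 8.21 in KO vehicle and 6.76 to 7.93 in KO stimulated cells. Across all genes, 5 libraries correlated best with a library of the other genotype. All 5 were stimulated and numbered 2 (3 KO, 2 WT). At 12 h and at 24 h the stimulated WT and KO replicates 2 were each other's nearest library (r = 0.949 at both times). Stimulated KO replicate 2 at 6 h had a best match of r = 0.862, to stimulated WT replicate 3 at 6 h. Its mean r to its own group was the lowest of all 36 libraries (0.839). Results are therefore also given for the 24 libraries numbered 1 and 3, an alternative added after seeing the data. Libraries left out for likeness to the other genotype can widen the genotype gap by that choice alone. Over all genes, genotype calls on the mean of 3 times rose from 23.4% to 27.7% with vehicle and from 22.6% to 33.9% with stimulation. Genotype and interaction calls from these 24 libraries are thus no independent support.

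**Figure D1:**
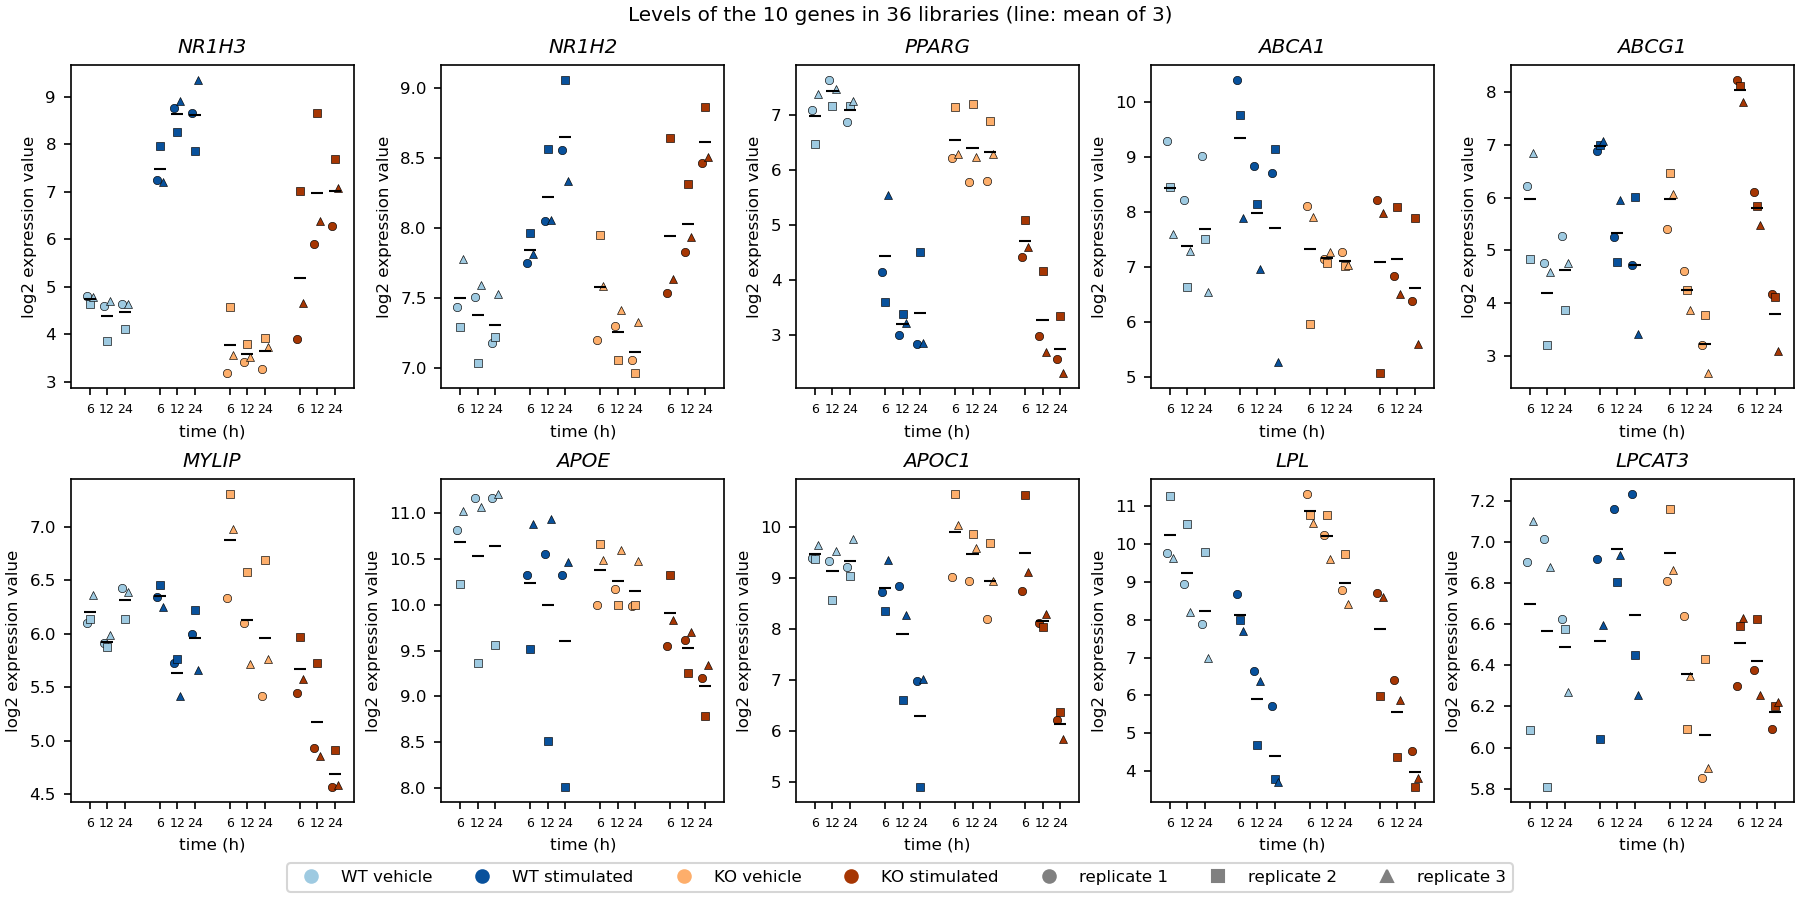
Log2 expression values of the 10 genes (vertical axes, log2 scale, each with its own range) in 36 libraries, by time in hours, genotype and treatment. Symbols mark replicates 1 to 3 and lines the mean of 3: NR1H3 is higher and PPARG and LPL lower in the stimulated groups, and the squares (replicate 2) of NR1H3 in stimulated KO cells lie above the other 2 libraries at each time.

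NR1H3, encoding LXRα, rose with stimulation in WT cells at every time and in KO cells at 12 and 24 h. In WT vehicle cells it was at 4.81, 4.63 and 4.79 at 6 h, then 4.60, 3.86 and 4.70 at 12 h, then 4.64, 4.11 and 4.63 at 24 h. Stimulated WT cells had 7.25, 7.96 and 7.20 at 6 h, then 8.76, 8.26 and 8.90 at 12 h, then 8.65, 7.86 and 9.35 at 24 h. Every stimulated WT library was thus above every WT vehicle library. The change was 2.73 ± 0.59 at 6 h (6.61-fold, limma adjusted p = 0.000631), 4.25 ± 0.59 at 12 h (19.1-fold, adjusted p = 1.93e-06) and 4.16 ± 0.59 at 24 h (17.9-fold, adjusted p = 1.98e-06).

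In stimulated KO cells the 3 libraries lay further apart at 6 and 12 h than those of stimulated WT cells. KO vehicle libraries had 3.18, 4.58 and 3.56 at 6 h, then 3.41, 3.80 and 3.53 at 12 h, then 3.28, 3.93 and 3.73 at 24 h. Stimulated KO libraries had 3.90, 7.02 and 4.66 at 6 h, then 5.90, 8.66 and 6.38 at 12 h, then 6.29, 7.68 and 7.08 at 24 h. Replicate 2 was the highest of the 3 in all 6 KO groups, and at 6 h the stimulated and vehicle groups overlapped. NR1H3 rose by 3.40 ± 0.59 at 12 h (10.6-fold, limma adjusted p = 4.72e-05) and 3.37 ± 0.59 at 24 h (10.4-fold, adjusted p = 4.58e-05). At 6 h the change was 1.42 ± 0.59 and not called (adjusted p = 0.0591). With the replicate number as a block it was called (adjusted p = 0.0407), and so it was in the 24 libraries numbered 1 and 3 (0.91, adjusted p = 0.0353) and without KO vehicle replicate 2 (1.82, adjusted p = 0.0309) or stimulated KO replicate 1 (2.07, adjusted p = 0.00988). The 12 h rise was 2.56 without stimulated KO replicate 2.

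NR1H2, encoding LXRβ, which is made in most tissues, rose at 12 and 24 h in both genotypes. WT vehicle values lay between 7.04 and 7.78, and stimulated WT libraries reached 8.56, 9.06 and 8.33 at 24 h. KO vehicle values lay between 6.96 and 7.95, and stimulated KO libraries reached 8.47, 8.87 and 8.51 at 24 h. The groups did not overlap at 12 and 24 h in either genotype. At 24 h WT cells had a rise of 1.35 ± 0.25 (2.54-fold, limma adjusted p = 8.87e-05), and KO cells a 2.83-fold rise with the same SE (adjusted p = 2.68e-05). At 12 h it was 0.85 (adjusted p = 0.00946) and 0.77 (adjusted p = 0.0182), and neither was called without replicate 2 of either of its 2 groups (0.67, 0.68, 0.67 and 0.63). At 6 h the changes of 0.34 and 0.36 were not called. The growth of the response from 6 h to 24 h was 1.00 ± 0.36 in WT (adjusted p = 0.0755) and 1.14 ± 0.36 in KO cells (adjusted p = 0.0519). Both were called with the replicate block (adjusted p = 0.0426 and 0.0266).

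PPARG fell in all 6 stimulated groups, to levels near the filter limit. WT vehicle libraries lay between 6.48 and 7.64 and KO vehicle libraries between 5.79 and 7.20. Stimulated WT libraries had 4.15, 3.60 and 5.55 at 6 h, then 3.00, 3.39 and 3.23 at 12 h, then 2.85, 4.51 and 2.85 at 24 h. Stimulated KO libraries had 4.41, 5.10 and 4.61 at 6 h, then 2.98, 4.17 and 2.70 at 12 h, then 2.58, 3.35 and 2.30 at 24 h. No stimulated library reached the level of any vehicle library of its own group pair. In WT cells the change of PPARG was -2.55 ± 0.48, -4.22 ± 0.48 and -3.69 ± 0.48 at 6, 12 and 24 h, with limma adjusted p = 0.000110, 5.54e-08 and 4.05e-07. KO cells had changes of -1.84 ± 0.48, -3.12 ± 0.48 and -3.59 ± 0.48, with adjusted p = 0.00285, 7.13e-06 and 7.13e-07. With an offset of 5 added on the linear scale the KO change at 24 h was -2.86. The 3 receptors thus moved apart: both LXR genes higher, PPARG lower.

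The 2 sterol exporters differed. ABCA1, the transporter that loads cholesterol onto lipid-poor apolipoprotein A-I, varied most of the 10 between replicates (median SD of a group 1.06). Stimulated WT libraries had 10.40, 9.76 and 7.90 at 6 h, then 8.84, 8.15 and 6.96 at 12 h, then 8.70, 9.14 and 5.26 at 24 h, against 9.28, 8.45 and 7.60, then 8.22, 6.64 and 7.29, then 9.02, 7.51 and 6.55 in WT vehicle cells. Stimulated KO libraries had 8.22, 5.06 and 7.98, then 6.84, 8.10 and 6.50, then 6.38, 7.88 and 5.60, against 8.10, 5.96 and 7.90, then 7.14, 7.07 and 7.26, then 7.27, 7.01 and 7.04 in KO vehicle cells. Stimulated and vehicle groups overlapped at every time in both genotypes. No stimulation change was called: the estimates ran from -0.49 to 0.91, each with an SE of 0.89. At 6 h in WT cells the 95% interval of the change was -0.91 to 2.73, and over all 6 comparisons the intervals reached from -2.31 to 2.73.

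ABCG1, which exports cholesterol to mature high-density lipoprotein, rose early in KO cells. At 6 h KO vehicle libraries had 5.40, 6.46 and 6.06 and stimulated KO libraries 8.23, 8.11 and 7.81. At 12 h they had 4.61, 4.25 and 3.86 against 6.10, 5.85 and 5.47, and at 24 h 3.20, 3.78 and 2.66 against 4.16, 4.12 and 3.08. The groups did not overlap at 6 and 12 h and overlapped at 24 h. ABCG1 rose by 2.08 ± 0.53 at 6 h (4.22-fold, limma adjusted p = 0.00268) and 1.57 ± 0.53 at 12 h (2.96-fold, adjusted p = 0.0225), and the 0.57 at 24 h was not called. The 12 h call was lost without KO vehicle replicate 3 (1.38), stimulated KO replicate 1 (1.42) or stimulated KO replicate 2 (1.55).

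In WT cells ABCG1 was also higher in each stimulated library at 6 and 12 h, but these changes did not pass the test. WT vehicle libraries had 6.21, 4.84 and 6.84 at 6 h and 4.76, 3.20 and 4.59 at 12 h, against 6.88, 7.00 and 7.07 and then 5.25, 4.77 and 5.96 with stimulation. The changes were 1.02 ± 0.53 (limma adjusted p = 0.141) and 1.14 ± 0.53 (adjusted p = 0.0918). The KO and WT responses were not shown to differ (interaction, mean of 3 times, 0.66 ± 0.44, adjusted p = 0.437), though in the 24 libraries numbered 1 and 3 the same difference was 1.37 and called (adjusted p = 0.0254). In both treatments and genotypes the mean of ABCG1 was higher at 6 h than at 24 h, with its highest group mean in KO stimulated cells at 6 h (8.05 ± 0.22, SD, n = 3) and its lowest in KO vehicle cells at 24 h (3.22 ± 0.56, SD, n = 3).

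MYLIP, a ubiquitin ligase also known as IDOL that limits lipoprotein uptake, was the member whose response to stimulation differed between genotypes. WT vehicle libraries had 6.10, 6.14 and 6.36 at 6 h, then 5.91, 5.88 and 5.99 at 12 h, then 6.43, 6.14 and 6.39 at 24 h, and stimulated WT libraries 6.34, 6.45 and 6.25, then 5.73, 5.76 and 5.42, then 6.00, 6.22 and 5.67. KO vehicle libraries had 6.34, 7.31 and 6.98, then 6.10, 6.58 and 5.72, then 5.42, 6.69 and 5.76. Stimulated KO libraries had 5.45, 5.97 and 5.58, then 4.93, 5.73 and 4.86, then 4.56, 4.91 and 4.59. The KO groups were separate at 6 and 24 h, and at 12 h 1 stimulated library (5.73) exceeded the lowest vehicle library (5.72).

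MYLIP fell in KO cells, with changes of -1.21 ± 0.29 at 6 h (2.31-fold, limma adjusted p = 0.00135), -0.96 ± 0.29 at 12 h (1.94-fold, adjusted p = 0.00995) and -1.27 ± 0.29 at 24 h (2.41-fold, adjusted p = 0.000802). The 12 h call was lost without KO vehicle replicate 2 (-0.74) or stimulated KO replicate 3 (-0.80). In WT cells the changes were 0.15, -0.29 and -0.36, none called. The KO change minus the WT change was -0.98 ± 0.23 on the mean of 3 times and was called (adjusted p = 0.00972). At 6 h alone it was -1.36 ± 0.41 (adjusted p = 0.175, and 0.0470 with the replicate block). Without the 12 libraries numbered 2 the mean difference was -0.76 (adjusted p = 0.0159).

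The 2 apolipoproteins and the lipase form a group of secreted proteins, and APOC1 and LPL fell. APOE and APOC1 are neighbours in the genome, with no gene of the annotation between them. APOE, the apolipoprotein that macrophages secrete to accept cholesterol, had WT vehicle values from 9.36 to 11.21 and stimulated WT values from 8.01 to 10.93. In KO cells vehicle libraries lay between 9.99 and 10.66 and stimulated libraries between 8.79 and 10.32. Taken by time, the KO groups were separate at 12 h (10.00 to 10.59 against 9.26 to 9.70) and 24 h (9.99 to 10.47 against 8.79 to 9.35). At 6 h in KO cells and at every time in WT cells the APOE groups overlapped. Its estimates were negative in all 6 comparisons, from -1.04 to -0.45 with an SE of 0.57, and none was called. In fits of only the libraries compared the KO changes at 12 and 24 h were called (adjusted p = 0.0215 and 0.00671). At 24 h the WT libraries had 11.16, 9.56 and 11.21 with vehicle and 10.32, 8.01 and 10.46 with stimulation, a drop in each like-numbered pair. That change of -1.04 had an adjusted p of 0.137, and 0.0469 with the replicate block. APOE fell, when the 12 libraries numbered 2 were left out, at 24 h in WT by 0.79 (adjusted p = 0.0113) and at 12 and 24 h in KO cells by 0.73 and 0.95 (adjusted p = 0.0242 and 0.00445). Without WT vehicle replicate 2 the WT change at 24 h was -1.58 (adjusted p = 0.0378).

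APOC1, a small apolipoprotein that inhibits lipases and lipid transfer, was called lower at 24 h. At 24 h WT vehicle libraries had 9.21, 9.04 and 9.76 and stimulated WT libraries 6.98, 4.90 and 7.03. KO vehicle libraries had 8.21, 9.68 and 8.95 and stimulated KO libraries 6.22, 6.38 and 5.84. The groups were separate in both genotypes, and stimulated WT replicate 2 was the lowest of the 12 libraries. The change of APOC1 was -3.04 ± 0.54 in WT (8.20-fold lower, limma adjusted p = 4.43e-05) and -2.80 ± 0.54 in KO cells (6.98-fold, adjusted p = 0.000147). Without stimulated WT replicate 2 the WT change was -2.33. At 6 h the changes were -0.66 and -0.40 and at 12 h -1.24 and -1.31, none called. The groups were separate in WT cells at 6 h and in KO cells at 12 h, and overlapped in KO cells at 6 h and WT cells at 12 h. Without stimulated WT replicate 1 the WT value at 12 h was -1.71 and called (adjusted p = 0.0268). The KO value at 12 h was called in a fit of only the libraries compared (adjusted p = 0.00445) and without the libraries numbered 2 (-1.05, adjusted p = 0.0309).

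The APOC1 response at 24 h minus that at 6 h was -2.38 ± 0.77 in WT (limma adjusted p = 0.0471) and -2.40 ± 0.77 in KO cells (adjusted p = 0.0549, and 0.0408 with the replicate block). The WT call was lost when any of 9 single libraries was left out (values of -2.52 to -1.67, the last without stimulated WT replicate 2 at 24 h). Without KO vehicle replicate 2 at 6 h, KO vehicle replicate 1 at 24 h or stimulated KO replicate 1 at 6 h the KO value was called (-2.78, -2.77 and -2.78). In the 24 libraries numbered 1 and 3 both were called (-2.00 and -1.96). APOC1 has a close pseudogene copy, and how reads shared with it were counted is not given in the sources used here.

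LPL, lipoprotein lipase, which releases fatty acids from triglyceride-rich lipoproteins, fell in all 6 stimulated groups and had the largest single fall of the 10 genes. In WT vehicle cells it was at 9.77, 11.28 and 9.65 at 6 h, then 8.94, 10.54 and 8.20 at 12 h, then 7.89, 9.79 and 6.98 at 24 h. Stimulated WT libraries had 8.68, 8.00 and 7.71, then 6.63, 4.68 and 6.39, then 5.73, 3.78 and 3.71. KO vehicle libraries had 11.33, 10.78 and 10.55, then 10.25, 10.77 and 9.60, then 8.79, 9.75 and 8.41, and stimulated KO libraries 8.71, 5.98 and 8.59, then 6.40, 4.38 and 5.88, then 4.54, 3.57 and 3.82. Stimulated and vehicle groups were separate in all 6 comparisons, and in each like-numbered vehicle series the value at 24 h was below that at 6 h.

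The change of LPL was -2.10 ± 0.75, -3.33 ± 0.75 and -3.82 ± 0.75 in WT cells at 6, 12 and 24 h (4.29-, 10.0- and 14.1-fold, limma adjusted p = 0.0287, 0.000837 and 0.000139). The KO changes were -3.13 ± 0.75, -4.65 ± 0.75 and -5.01 ± 0.75 (8.75-, 25.1- and 32.1-fold, adjusted p = 0.00142, 1.51e-05 and 4.54e-06). The WT call at 6 h was lost without vehicle replicate 2 (-1.58), stimulated replicate 2 (-2.03) or stimulated replicate 3 (-1.89). All 6 falls were called but smaller in the 24 libraries numbered 1 and 3, from -1.51 to -2.72 in WT and from -2.29 to -4.42 in KO cells. Single libraries moved the size by over 1.5 times: in WT cells to -2.67 without vehicle and -2.71 without stimulated replicate 2 at 12 h, and to -3.03, -4.44 and -4.48 without vehicle replicate 2, vehicle replicate 3 and stimulated replicate 1 at 24 h. In KO cells the values without stimulated replicate 2 were -2.24 at 6 h and -4.06 at 12 h.

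LPCAT3, which puts polyunsaturated chains into phosphatidylcholine, passed the test in none of the 20 comparisons. Its 36 values ran from 5.81 to 7.23, and the 12 group means spanned 0.91, the smallest span of the 10. No change with stimulation was called, with estimates from -0.44 to 0.40 and an SE of 0.30. Over the 6 comparisons the 95% intervals of its change reached from -1.04 to 1.01. Only in KO cells at 6 h did the groups not overlap (6.81, 7.16 and 6.86 with vehicle, 6.30, 6.59 and 6.63 with stimulation).

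**Figure D2:**
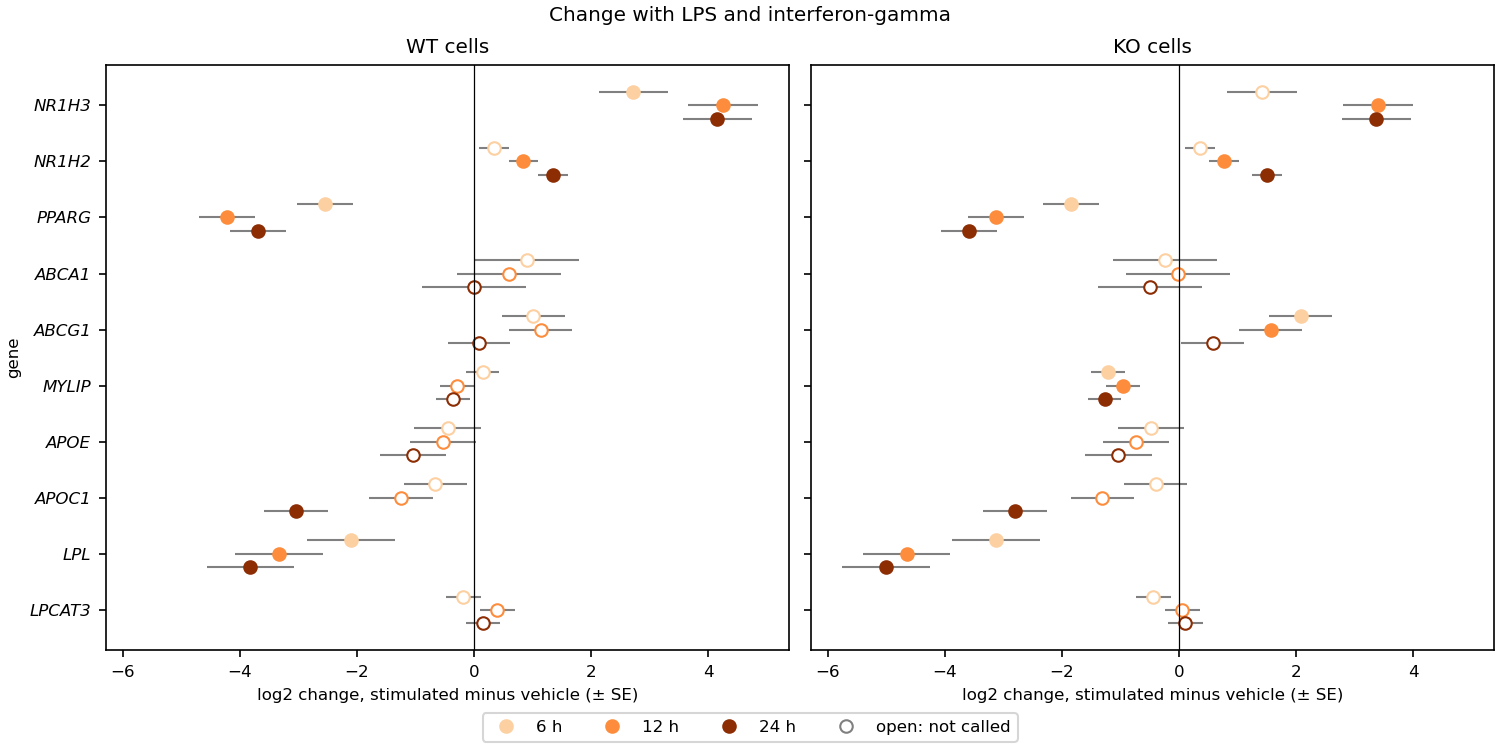
Log2 change with LPS and IFN-γ against vehicle (horizontal axis) for each gene in WT (left) and KO cells (right) at 6, 12 and 24 h, with the SE as bars. Filled points are called: NR1H3 and NR1H2 lie to the right, PPARG, LPL and at 24 h APOC1 to the left, and MYLIP is filled in KO cells only, where it lies at -1.21, -0.96 and -1.27.

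Counted over the 10 genes, stimulation of WT cells called 1 higher and 2 lower at 6 h, where 15.1% of all 21232 genes were called higher and 20.9% lower. At 12 h 2 were higher and 2 lower, against 16.8% and 21.7%, and at 24 h 2 higher and 3 lower, against 20.2% and 26.1%. In KO cells 1 was higher and 3 lower at 6 h, 3 higher and 3 lower at 12 h, and 2 higher and 4 lower at 24 h, against 16.2% and 22.5%, 15.5% and 19.5%, and 17.3% and 21.6% of all genes. The counts lay on both sides of these shares, furthest above in KO cells at 24 h, with 4 of 10 lower against 21.6%. As 10 genes are too few to show a departure from the background, the set is described by which members moved and not by how many. Its median change ran from -0.76 to 0.06 over the 6 comparisons, and that of all genes from -0.20 to -0.08.

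Across the 12 group means the genes fell into patterns. Of 45 pairs 7 had Pearson r above 0.8 and 6 below -0.8. Of the 6 pairs among PPARG, APOE, APOC1 and LPL 5 were above 0.8, with APOC1 and LPL the closest (r = 0.92) and PPARG and APOE at 0.89. NR1H3 and NR1H2 were alike (0.87) and ran opposite to PPARG (-0.87 and -0.90). ABCA1, ABCG1 and LPCAT3 were in no such pair. These are descriptions over 12 points that share libraries and the same treatment.

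**Figure D3:**
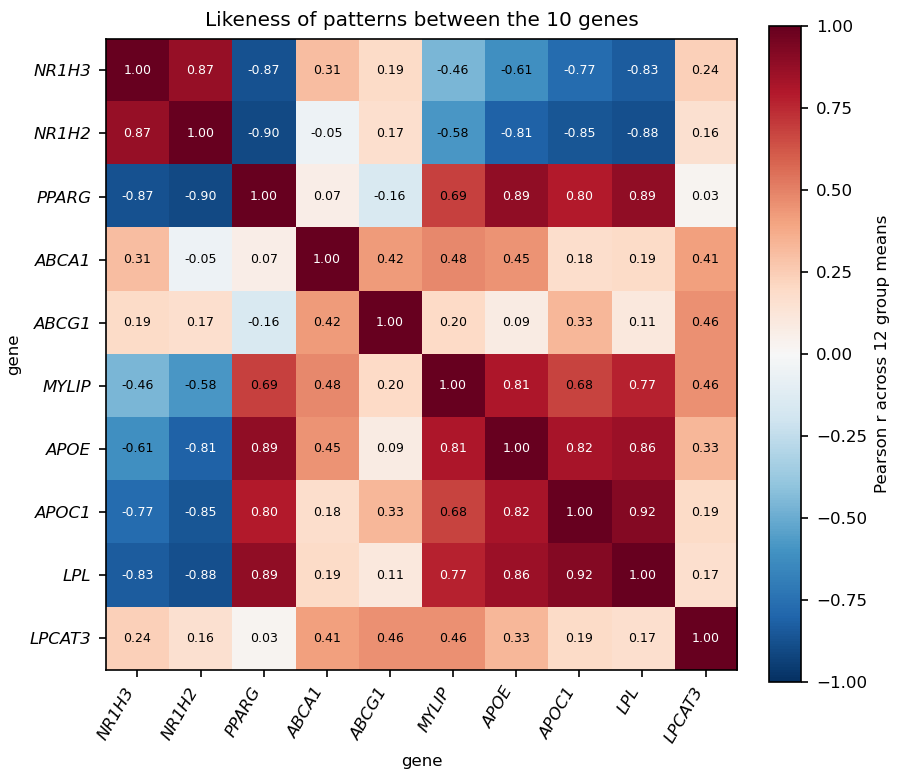
Pearson r across 12 group means for each pair of the 10 genes, on a colour scale from -1 to 1. The 2 LXR genes form a block (0.87) and run opposite to PPARG and LPL, while PPARG, APOE, APOC1 and LPL form a second block in which 5 of 6 pairs are above 0.8.

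Genotype was compared within each treatment. Values from the 24 libraries numbered 1 and 3 are given as description, since that choice used likeness to the other genotype. The mean of 3 times takes like-numbered libraries of different times as independent, so its SEs and p-values may be too small. In vehicle cells 0 of the 10 genes were called by limma at 6, 12 or 24 h, where 8.19%, 5.24% and 3.98% of all genes were called, and 0 on the mean of 3 times, where 23.4% were. NR1H3 and PPARG lay nearest to the threshold on that mean. NR1H3 was lower in KO cells by -0.87 ± 0.34 (1.96-, 1.75- and 1.76-fold at the 3 times, adjusted p = 0.0683), and all 9 KO vehicle libraries were below the WT libraries of their own time. PPARG differed by -0.74 ± 0.28 (adjusted p = 0.0509). Both were called with the replicate block (adjusted p = 0.0449 and 0.0273, where 28.8% of all genes were called), and at least 1 of them without KO vehicle replicate 2 at any of the 3 times or WT vehicle replicate 2 at 6 h (NR1H3 -0.999 and PPARG -0.84, -0.87, -0.83 and -0.82). In the 24 libraries numbered 1 and 3, 5 of 10 were called on the mean of 3 times, against 27.7% of all genes, and 1, 2 and 4 at 6, 12 and 24 h, against 10.7%, 9.67% and 8.16%. Those 5 were as follows: NR1H3 -1.25, PPARG -1.18, ABCG1 -1.11 and APOE -0.78 lower, and LPL higher by 1.25 (adjusted p = 9.88e-05, 0.000397, 0.00584, 0.000332 and 0.00590).

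In stimulated cells NR1H3, MYLIP and ABCA1 were lower in KO than in WT cells on the mean of 3 times, and 0 were higher, where 22.6% of all genes were called, 10.4% lower and 12.2% higher. NR1H3 was lower by -1.85 ± 0.34 (limma adjusted p = 0.000264). Its difference at 6 h was -2.28 ± 0.59 (4.85-fold, adjusted p = 0.0144), and the values at 12 and 24 h were -1.66 and -1.60 (adjusted p = 0.127 and 0.108). The 6 h call was lost without stimulated WT replicate 2 (-2.03), KO replicate 1 (-1.63) or KO replicate 3 (-2.01), and the difference was -3.19 without KO replicate 2. At 12 h it was -2.50 and called without KO replicate 2. In the 24 libraries numbered 1 and 3 the mean difference was -2.65 (adjusted p = 1.34e-07), and NR1H3 was called at every time. ACOD1 itself was less reduced in 2 of these 3 KO libraries, at 10.22 and 9.78 in replicate 2 at 12 and 24 h against 7.98 to 8.60 in the others.

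MYLIP was lower in stimulated KO cells by -0.81 ± 0.17 on the mean (limma adjusted p = 0.000746) and by -1.28 ± 0.29 at 24 h (2.42-fold, adjusted p = 0.00806). The groups were separate at 6 and 24 h. The 24 h call was lost without stimulated KO replicate 1 (-1.21, adjusted p = 0.0535) and in a fit of only the libraries compared. Leaving out the 12 libraries numbered 2 gave a mean difference of -0.91 (adjusted p = 0.000162).

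ABCA1 was lower in stimulated KO cells by -1.39 ± 0.51 on the mean, just inside the threshold (limma adjusted p = 0.0492), and was called at no single time. The groups overlapped at 6, 12 and 24 h, where the differences were -2.27, -0.84 and -1.08. The call was lost without any of 11 of the 18 stimulated libraries (differences of -1.06 to -1.37) and in the 24 libraries numbered 1 and 3 (-1.09, adjusted p = 0.169). It was also lost under the stricter filter, with no mean-variance trend and in a fit of only the libraries compared (adjusted p = 0.0547, 0.0573 and 0.126). APOE and LPCAT3 had estimates of -0.43 and -0.35 that were not called. Both were called without the libraries numbered 2, at -1.03 (adjusted p = 3.86e-05) and -0.54 (adjusted p = 0.0128). With NR1H3 and MYLIP that made 4 of 10, against 33.9% of all genes, and 2, 2 and 3 were called at 6, 12 and 24 h, against 9.28%, 9.50% and 16.2%.

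At single times 1 of 10 was lower at 6 h (NR1H3), 0 at 12 h and 1 at 24 h (MYLIP), against 3.86%, 1.68% and 2.46% of all genes called lower. The interaction of genotype and treatment called 1 of 10 on the mean of 3 times, MYLIP, against 6.24% of all genes. At 6, 12 and 24 h it called 0, against 0.452%, 0.160% and 0.433%. For NR1H3 the mean interaction was -0.98 ± 0.49 (limma adjusted p = 0.261), and -1.40 in the 24 libraries numbered 1 and 3 (adjusted p = 0.00226). For LPL it was -1.18 ± 0.61 (adjusted p = 0.288), and -1.40 in those libraries (adjusted p = 0.0407), where 4 of 10 genes and 15.2% of all genes were called. The growth of the response from 6 to 24 h called 1 of 10 in WT and 0 in KO cells, against 9.64% and 6.75% of all genes, and 2 in each with the replicate block, against 15.3% and 11.7%. Without the libraries numbered 2 it called 4 in each (NR1H3 and NR1H2 higher, PPARG and APOC1 lower), against 11.1% and 5.67%.

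**Figure D4:**
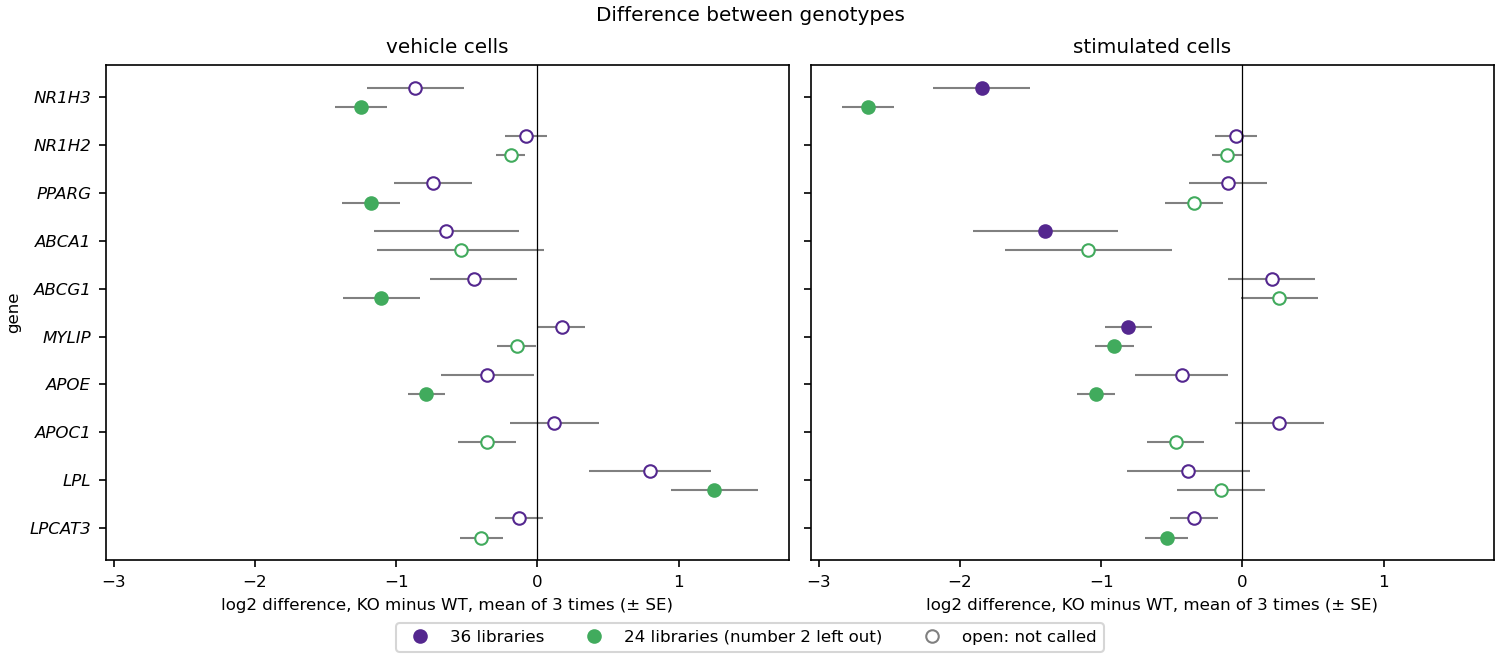
Log2 difference between KO and WT cells (horizontal axis, KO minus WT, mean of 3 times) for each gene in vehicle (left) and stimulated cells (right), with the SE as bars, in all 36 libraries and in the 24 libraries numbered 1 and 3. Filled points are called: NR1H3 moves from -1.85 to -2.65 in stimulated cells and APOE from -0.43 to -1.03, while MYLIP stays near -0.81 and -0.91. Replicate 2 was left out for likeness to the other genotype, which can widen these differences by itself.

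Genotype also moved the cell type markers, and their part in these differences was not tested. On the mean of 3 times in vehicle cells 6 of the 10 macrophage markers were lower in KO cells and 1 higher, against 12.0% and 11.4% of all genes. In stimulated cells 4 were lower, against 10.4%. CD163, a scavenger receptor of mature macrophages, was at 8.19 to 10.14 in WT and 2.45 to 5.43 in KO vehicle cells, and lysozyme (LYZ) was lower by -3.01 ± 0.30. In bulk RNA, fewer cells of a type and less RNA per cell cannot be told apart.

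Receptor partners and cofactors were described from a list of 14, of which 13 were tested. RXRA, an RXR gene, fell in all 6 stimulation comparisons, with changes of -2.53 to -1.77 and an SE of 0.28. RXRA was not shown to differ between genotypes on the mean of 3 times (0.10 and 0.27, neither called). RXRB, another RXR gene, had changes of -0.26 to 0.13 and was called in 0 of the 6. PPARGC1A, a coactivator of oxidative metabolism, fell too, with changes of -4.32 to -4.04 in WT and -2.41 to -1.66 in KO cells, where the 6 h call was lost without vehicle replicate 3 (-0.93) or stimulated replicate 1 (-1.54). At 6 h 1 of the 13 was called higher and 4 lower in WT, against 15.1% and 20.9% of all genes. In KO cells these were 2 and 4, against 16.2% and 22.5%. At 12 h 0 were higher and 3 lower in WT, against 16.8% and 21.7%, and 2 and 3 in KO cells, against 15.5% and 19.5%. At 24 h 2 were higher and 2 lower in WT, against 20.2% and 26.1%. In KO cells these were 1 and 2, against 17.3% and 21.6%. Only at 24 h were all these shares no larger than the background. PPARD was lower in KO cells in both treatments (-0.71 and -0.75 on the mean, limma adjusted p = 0.00877 and 0.00662).

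Of 8 enzymes of oxysterol supply and removal 5 were tested. CH25H, which makes 25-hydroxycholesterol, an LXR ligand, rose at 6, 12 and 24 h, with changes of 7.07, 4.32 and 3.17 in WT cells and 7.11, 4.70 and 2.78 in KO cells (SE 0.78, limma adjusted p at most 0.00559). CYP7B1, which inactivates oxysterols, was higher in KO cells in both treatments, by 1.56 ± 0.26 and 1.73 ± 0.26 on the mean of 3 times (adjusted p = 5.39e-05 and 2.23e-05). In each of the 6 stimulation comparisons 2 of the 5 were higher and 1 or 0 lower, where 15.1% to 20.2% of all genes were higher and 19.5% to 26.1% lower.

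Of 17 other genes tied to LXR 14 were tested, and those called between genotypes were lower in KO cells. The list was chosen with earlier results of these data known, so its counts against all genes are description and no independent support. On the mean of 3 times 8 of 14 were lower and 0 higher with vehicle, against 12.0% and 11.4% of all genes, with a list median of -0.995 against -0.03. With stimulation 6 were lower and 0 higher, against 10.4% and 12.2% of all genes, with a median of -0.79 against 0.02. In the 24 libraries numbered 1 and 3 the counts were 8 and 9 lower and 0 higher, against 14.6% and 15.4% of all genes called lower. With the replicate block the vehicle count was 10, against 14.7%. TTC39B, which promotes LXR degradation, was lower by -2.41 and -1.95 in vehicle and stimulated cells (limma adjusted p = 8.91e-08 and 4.84e-06). SCD, the stearoyl-CoA desaturase, was lower by -2.23 and -1.67, and SMPDL3A, a phosphodiesterase induced by LXR, by -1.55 and -1.40.

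The same list moved both ways with stimulation. At 24 h 2 rose and 7 fell in WT cells, against 20.2% and 26.1% of all genes, and 3 rose and 3 fell in KO cells, against 17.3% and 21.6%. MERTK, a receptor for apoptotic cells, had changes of -4.02 ± 0.46 (WT) and -4.50 ± 0.46 (KO) at 6 h, and of -1.48 and -1.56 at 24 h. The WT call at 24 h was lost without vehicle replicate 1 (-1.23) or stimulated replicate 3 (-1.09). TTC39B rose in all 6 comparisons, by 1.37 to 2.83. At 6 and 12 h in WT cells its call was lost without either of 2 libraries (vehicle replicate 3, 1.10 and 1.26, or stimulated replicate 1, 1.21 and 1.29), and at 12 h in KO cells without stimulated replicate 2 (1.26).

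PPARγ targets, 12 listed and 10 tested, had 3 to 6 lower and 0 to 2 higher in each stimulation comparison, against 19.5% to 26.1% and 15.1% to 20.2% of all genes. The 3 lower in WT cells at 12 h and at 24 h are near that share. PLIN2, the coat protein of lipid droplets, fell in all 6, with changes of -2.56 to -1.13. Its smallest fall, in WT cells at 24 h, was lost without any of 4 libraries (vehicle replicate 1, -1.09, or 2, -0.92, stimulated replicate 2, -1.07, or 3, -0.87) and in the 24 libraries numbered 1 and 3 (-0.86). ANGPTL4, a secreted inhibitor of LPL, ran against the list in WT cells and rose by 5.18 ± 0.67, 3.80 ± 0.67 and 2.42 ± 0.67. In KO cells it rose at 6 h by 2.27 ± 0.67 (not called without vehicle replicate 2, 1.58, or stimulated replicate 2, 1.81, nor in the 24 libraries numbered 1 and 3, 1.12). The 2 responses differed (interaction, mean of 3 times, -2.52 ± 0.54, limma adjusted p = 0.00421).

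Lipid uptake, storage and sterol ester turnover genes, 20 listed and tested, had 1 or 2 higher and 6 to 8 lower in each stimulation comparison, against 15.1% to 20.2% and 19.5% to 26.1% of all genes. SCARB1, a receptor for high-density lipoprotein, fell in all 6, with changes of -2.80 to -1.41 (SE 0.38). STARD4, a cytosolic sterol carrier, rose in all 6, by 1.96 to 2.97 in WT and by 3.85 to 4.95 in KO cells, and these responses differed (interaction, mean of 3 times, 2.01 ± 0.36, limma adjusted p = 0.000799). LRP1, a receptor for APOE-bearing particles, was lower in KO cells in both treatments (-2.10 ± 0.27 and -2.05 ± 0.27 on the mean of 3 times, adjusted p = 7.39e-07 and 1.98e-06).

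Among lipase partners, 10 of 13 listed were tested, and 1 to 3 were higher and 0 to 4 lower in each stimulation comparison, against the same shares of all genes. GPIHBP1, which anchors LPL on capillary cells, rose in 5 of 6 comparisons, by 2.89 to 4.32, each with an SE of 1.03. Its KO calls at 6 and 12 h were lost without any of 4 and any of 3 libraries (values down to 2.14 and 1.79, both without vehicle replicate 3), and the WT call at 24 h without stimulated replicate 3 (2.60). HSPG2, the matrix proteoglycan perlecan, was higher in KO cells in both treatments (1.69 ± 0.32 and 1.43 ± 0.32, limma adjusted p = 0.000193 and 0.00153). Of 11 lysophospholipid acyltransferases, the wider family of LPCAT3, 1 to 3 were higher and 1 to 4 lower in each stimulation comparison. These counts lay on both sides of the background of 15.1% to 20.2% and 19.5% to 26.1%.

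The genes whose pattern over the 12 group means was most like that of 4 members were named by Pearson r. For NR1H3 they were PARP15 (0.99), ZSWIM8 (0.99) and CIART (0.98), for APOE TMEM256 (0.98), TRAPPC1 (0.98) and TXNDC17 (0.98). For MYLIP they were POLR2H (0.91), DPF1 (0.90) and FXYD5 (0.90), and for ABCA1 GABRG1 (0.91), H4C3 (0.90) and SLC22A23 (0.89). Patterns like that of NR1H3 were common, with 12.9% of all genes above r of 0.8, and those like that of APOE less so, at 6.78%. Only 0.608% of genes were that close to MYLIP and 0.207% to ABCA1.

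The order of group means was a ladder of overlapping neighbours for most of the 10. NR1H3 ran from WT stimulated at 12 h (8.64 ± 0.34, SD, n = 3) to KO vehicle at 12 h (3.58 ± 0.20, SD, n = 3), with the 3 WT stimulated groups on top, then the 3 KO stimulated, the 3 WT vehicle and the 3 KO vehicle groups. Each of its 11 steps joined groups whose libraries overlapped. PPARG ran from WT vehicle at 12 h (7.43 ± 0.24, SD, n = 3) to KO stimulated at 24 h (2.74 ± 0.54, SD, n = 3), with 1 separated step, between KO vehicle at 24 h and KO stimulated at 6 h. ABCG1 had 2 separated steps, from KO stimulated to WT stimulated to KO vehicle cells at 6 h. APOC1 had 1, between WT stimulated at 6 h and KO stimulated at 12 h. The lowest group mean was KO stimulated at 24 h for PPARG, ABCA1, MYLIP, APOE, APOC1 and LPL.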

How the data were processed

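The table holds log2 expression values per gene in 36 libraries, deposited by the authors as 1 table of the series. RNA was extracted with a column kit and libraries were made from total RNA with ribosomal RNA removed, per the labels' protocols. Reads were trimmed with cutadapt 1.9.1 and aligned with GSNAP to GRCh37.p5, per the submitters' processing notes. The counting tool, the annotation, the scaling between libraries and any offset before the log are not given in the sources used here. The depth per library is therefore unknown, no interval from counts is given, and 3 libraries per group limit the precision.

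Samples were grouped by the genotype, treatment and time in their labels. Of 21599 genes, 367 were removed by the filter on low values. With limma 3.58.1 (R 4.3.3), 1 model with 12 group means took in all 36 libraries, with a mean-variance trend (24 residual degrees of freedom), and tested on simulated data. Over 20 comparisons, p-values are two-sided and adjusted by Benjamini-Hochberg over 21232 genes within each comparison. A fold is printed where neither group mean is under 3.32.

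The members and lists were chosen with earlier results of these data known. Counts of a list set against the share of all genes are thus description and no independent support. Named genes are all 10 members, at most 4 genes per other list with the largest mean absolute change over the 6 stimulation or the 6 genotype comparisons, the 3 genes most like each of 4 members, ACOD1 and CXCL10. CD163, LYZ and RXRB were named after their values were seen, as were the markers of other cell types.

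Replicate numbers are shared between groups in the labels. Deviations from group means of like-numbered libraries correlated above 0.1 in every pair in 9 of 12 comparisons of 2 groups. Every WT vehicle library correlated best with the like-numbered library of another time. So did the KO vehicle libraries, except replicate 2 at 6 h. The model takes libraries of different times as independent, so SEs and p-values on the mean of 3 times may be too small. The replicate block is shared by both genotypes and does not cover a series within 1 genotype. Alternatives were other filters, an offset, 2 scalings, no trend, fewer libraries in the fit, the replicate block and each library left out. Leaving out the 12 libraries numbered 2, or the 3 stimulated KO libraries among them, was added after seeing the data. Both choices used likeness to the other genotype, so the genotype and interaction calls they gained are no independent support. Promoter windows are from RefSeq on GRCh38.p14, a build other than that of the alignment. ABCG1 and LPL had no window. Some genes of the lists are not reported here by name.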

Additional observations from a re-analysis of the deposited data

Results flagged for a closer look

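The response of MYLIP to LPS and IFN-γ differed between genotypes by a test of the difference itself. The KO change minus the WT change, on the mean of 3 times, was -0.98 ± 0.23 (limma adjusted p = 0.00972). That SE may be too small, since the fit takes libraries of different times as independent. The KO change was -1.21, -0.96 and -1.27 at 6, 12 and 24 h, all called, and the WT change 0.15, -0.29 and -0.36, none called.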

How the results depend on the processing

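Of 200 changes of the 10 genes (35 called), recomputed under 3920 alternative values, 0 changed direction while called. Other scalings moved the median of all genes by at most 0.0031. Library medians already lay between 5.469 and 5.475 in the deposited values. Median centring thus had almost nothing to move, and this small shift does not show robustness. The calls of NR1H3 and of PPARG with stimulation in WT cells, and those of LPL at 12 and 24 h, held under every alternative that tested those genes. Except where a filter removed genes, the cause of the changes below was not tested. Counts called of the 10 are given. Where no share of all genes called stands above for the same fit and comparison, the count says nothing on the members as a set.

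With the replicate block, the count was 2 (from 0) for KO against WT with vehicle on the mean of 3 times, 2 (from 0) for the growth of the KO response from 6 to 24 h, 2 (from 1) for that of the WT response and 1 (from 0) for the interaction at 6 h. The block lost no call. In the fit of only the libraries compared, the counts were 2 for vehicle cells on the mean, and 0 for stimulated cells at 6 h, 0 at 24 h and 0 for the growth of the WT response. That fit also gained APOC1 and APOE in KO cells at 12 h and APOE at 24 h, and lost ABCA1 in stimulated cells on the mean. With no mean-variance trend the growth of the WT response had 0. An offset of 5 gave 1 in vehicle cells on the mean. The stricter filter, which keeps 8 of the 10 genes, gave 2 (from 4) for KO stimulation at 6 h and 1 for the growth of the KO response. At 6 h no call was lost among the genes kept, and the other 2 called genes were removed and not tested. The only call it lost was that of ABCA1 in stimulated cells on the mean.

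Without the 12 libraries numbered 2, 34 calls were gained and 1 lost. KO against WT called 1, 2 and 4 with vehicle at 6, 12 and 24 h and 5 on the mean, and 2, 2 and 3 with stimulation. The interaction on the mean called 4, and the growth of the response 4 in WT and 4 in KO cells. Without only the 3 stimulated KO libraries numbered 2, stimulated cells had 1 at 12 h and 2 at 24 h, the interaction 2 and the growth of the KO response 2. Leaving out single libraries gave 0 to 2 for vehicle cells on the mean, 0 to 1 for stimulated cells at 6 h, 0 to 1 at 12 h and 0 to 1 at 24 h, and 0 to 1 and 0 to 2 for the growth of the WT and KO responses.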
